A study of Lolium multiflorum with 4 samples.

Results

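In the deposited values, the contigs described here were higher after 24 h of cadmium in the ryegrass LmLC. Their level in LmHC stayed close to its starting value on that scale. A contig is a transcript sequence pieced together from reads, and it may be 1 of several alleles, splice forms or gene copies. Members were chosen from the deposited FPKM values (fragments scaled to contig length and to the mapped fragments of the library) by 4 limits: a mean of at least 2 FPKM over the 4 libraries, a log2((FPKM at 24 h + 1)/(FPKM at 0 h + 1)) of at least 1.5 in LmLC, the same ratio between -0.5 and 0.5 in LmHC, and a log2 ratio of LmHC to LmLC between -0.5 and 0.5 at 0 h. These limits were met by 308 of 111761 contigs, which is 308 of the 49845 with a mean of at least 2 FPKM (0.618%). The levels that chose the members are given as a description.

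The plants were seedlings of Lolium multiflorum, or Italian ryegrass, a forage grass, and transcripts were measured by RNA sequencing. LmHC (high cadmium) and LmLC (low cadmium) were read as separate plant lines because the growth protocol names them as seed material, although the sample labels list these words as a treatment and also name the samples Dg and Vm. Both lines went from agar to Hoagland solution at 7 days and were treated at 2 weeks with 300 µM CdCl2, with 1 library of each line at 0 h and 1 at 24 h. The labels do not state the tissue, how many seedlings were pooled, or what high and low cadmium mean.

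Plants answer cadmium in part by binding the metal to thiol peptides such as phytochelatins, by moving it into the vacuole, and by the general responses to oxidative and heat stress. Italian ryegrass is an outcrossing, self-incompatible grass, so its plants carry many alleles, and an assembly of its transcripts can hold several contigs for 1 gene. Contigs that the assembly placed together carry a cluster name (CL, a number, then the contig number), and the others are called Unigene. The other contigs of a member's cluster are called its partners here. Where members are counted by what their partners do, fellow members of the cluster are included among the partners. Where partners are counted or summed by cluster, and in named clusters and figures, all members are left out. The deposited table pairs no contig with a gene name, so no function can be given for any contig.

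Each group was 1 library, so there is no replicate check and no p-value or standard error for any difference. Column totals lay between 782476 and 795368 FPKM. Estimated from the most frequent ratio of low values, the depth of the 24 h library relative to 0 h was 0.92 in LmLC and 0.956 in LmHC, and the absolute depth is unknown. Contigs listed at 0 numbered 14788 in LmLC at 24 h and from 17523 to 24679 in the other libraries. No untreated 24 h library was analysed here, so the effect of cadmium cannot be told apart from that of time. Nor can the lines be told apart from the single plant samples and preparations that stand for them.

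The single steps of the rule were common, and their combination was rare. Of the 49845 contigs with a mean of at least 2 FPKM, 21.6% were higher by a log2 of at least 1.5 in LmLC at 24 h and 21.2% in LmHC. The LmHC change lay within 0.5 for 19.3%, and the lines lay within 0.5 of each other at 0 h for 78.2%. Among the 10772 contigs that reached 1.5 in LmLC, 601 (5.58%) stayed within 0.5 in LmHC, and the limit at 0 h left 308 of these (2.86%). With the lines exchanged, the same limits gave 63 contigs (0.126%) that were higher in LmHC alone. Contigs that reached 1.5 in both lines from like levels at 0 h numbered 7606. The count of 308 depended on the settings, with 147 contigs when 0.1 FPKM was added in place of 1, 92 when the mean had to reach 5 FPKM and 1863 with no limit on the mean.

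Most members were close to 0 in every library but 1. In LmHC the members had a median of 0.00 FPKM at 0 h (quartiles 0.00 and 1.09, highest 41.91) and of 0.12 FPKM at 24 h (quartiles 0.00 and 1.29, highest 59.68). In LmLC the median was 0.20 FPKM at 0 h (quartiles 0.00 and 1.01, highest 37.78) and 11.47 FPKM at 24 h, where the lowest member had 4.49 and the highest 113.41 FPKM. The other 3 libraries were under 1 FPKM for 217 members (70.5%) and listed at 0 for 60. These 217 could pass the mean of 2 FPKM only through LmLC at 24 h. Together the members held 0.667% of all FPKM in LmLC at 24 h, against 0.0533% in LmLC at 0 h, 0.0603% in LmHC at 0 h and 0.0778% in LmHC at 24 h.

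**Figure D1:**
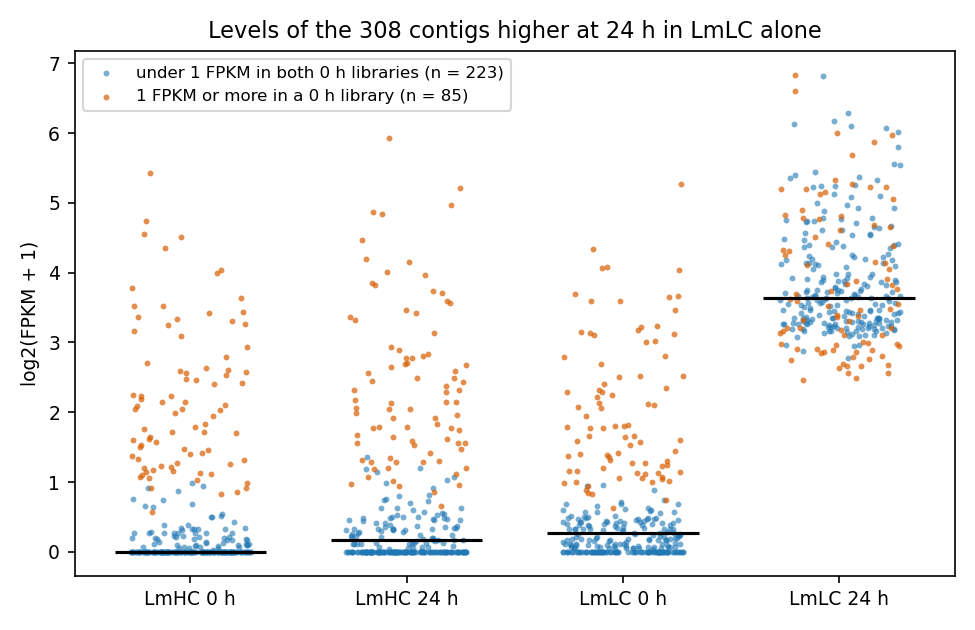
Level of each of the 308 members in the 4 libraries, as log2(FPKM + 1), with a point per contig (spread sideways at random) and a black line at the median. The 223 members under 1 FPKM in both 0 h libraries (blue) stay low in LmHC at 24 h, while the 85 with 1 FPKM or more in a 0 h library (orange) span a range of levels in all 4 libraries.

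By their level at 0 h the members are called silent here (under 1 FPKM in both 0 h libraries) or active (at least 1 FPKM in 1 or both). The 223 silent members had a median of 11.61 FPKM in LmLC at 24 h and 0.00 FPKM in LmHC at 24 h. Their median log2 rise in LmLC was 3.50, and 185 of them reached at least 3, an 8-fold ratio on this scale. The 85 with at least 1 FPKM in a 0 h library had medians of 2.44 and 10.73 FPKM in LmLC at 0 h and 24 h, and 3.12 and 3.44 FPKM in LmHC. Their median log2 rise in LmLC was 1.72, and none reached 3. The limit on the mean forces a high LmLC level at 24 h on silent contigs inside the bands. All 223 such contigs with a mean of at least 2 FPKM were members, so nothing is read from their larger rise.

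The LmHC change of the members was limited by the rule and is given as a description only. Among the active members it was above 0 in 68 of 85, above 0.25 in 46 and below -0.25 in 5, with a median of 0.27. Among the 22 members with at least 5 FPKM in both 0 h libraries, it was above 0 in 20 and above 0.25 in 17, and the median was 0.40. For the 223 silent members it was above 0 in 81 and above 0.25 in 48. Of all 6446 contigs with a mean of at least 2 FPKM and at least 1 FPKM in a 0 h library that lay inside the same bands in LmHC and at 0 h, whatever their change in LmLC, 41.1% were above 0 in LmHC. Nothing is read from this difference, since the members were also chosen for a rise in LmLC. The LmHC change of the active members also depended on the scaling. With the libraries scaled by the median of ratios, it was above 0 in 82 of the same 85, with a median of 0.555. That median lies beyond the upper limit of the rule for LmHC. A steady LmHC level of the active members therefore holds for the deposited scaling only.

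The members with the largest log2 rises and those with the highest levels overlapped, with 10 contigs in either group of 8 and 6 in both. CL12723.Contig3_All had 0.60 FPKM in LmHC at 0 h, 0.39 in LmHC at 24 h, 0.28 in LmLC at 0 h and 111.54 in LmLC at 24 h, a log2 rise of 6.46 in LmLC. In the same order, CL12723.Contig2_All had 0.27, 0.00, 0.29 and 76.94 FPKM, a rise of 5.92. CL12723.Contig1_All was listed at 0 in the other 3 libraries and had 54.99 FPKM in LmLC at 24 h. These are the whole of cluster CL12723, and all of them were near 0 outside LmLC at 24 h.

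The contigs outside that cluster with the largest rises were of the same silent kind. Unigene46340_All was listed at 0 in 3 libraries and had 69.12 FPKM in LmLC at 24 h. CL1391.Contig1_All had 0.00 and 0.26 FPKM in LmHC at 0 h and 24 h, and 0.04 and 71.51 FPKM in LmLC, a log2 rise of 6.12. CL1372.Contig1_All had 0.00 and 0.09 FPKM in LmHC and 0.04 and 63.83 FPKM in LmLC, a rise of 5.96. Each was at 0.26 FPKM or less in LmHC. Unigene48074_All had 0.00 and 0.01 FPKM in LmHC and 0.12 and 67.72 FPKM in LmLC, a rise of 5.94. Unigene48498_All was listed at 0 in both LmHC libraries and went from 0.31 to 66.26 FPKM in LmLC, a rise of 5.68.

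The highest level of all belonged to a contig of the active kind. CL1788.Contig11_All had 41.91 FPKM in LmHC at 0 h, 59.68 in LmHC at 24 h, 37.78 in LmLC at 0 h and 113.41 in LmLC at 24 h. It was higher at 24 h in both lines, by 1.56 in LmLC and by 0.50 in LmHC on the log2 scale, and it met the limit for LmHC by less than any other member. CL9850.Contig3_All went from 25.75 to 36.02 FPKM in LmHC (log2 change 0.47) and from 19.25 to 96.06 FPKM in LmLC (log2 rise 2.26).

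Contigs close to a limit show how much the membership rests on it. At the mean, CL2745.Contig5_All lay inside with 2.00 FPKM and Unigene9456_All with 2.0025, while CL5264.Contig8_All lay outside with 1.9975 and Unigene7164_All with 1.9875. At the LmLC limit, Unigene5567_All (1.5044) and Unigene25496_All (1.5126) were inside, and CL14935.Contig2_All (1.4981) and Unigene21686_All (1.4844) outside. The upper LmHC limit was the most crowded of the ratio limits, with 44 members within 0.1 inside it and 26 contigs within 0.1 outside it. CL1788.Contig11_All (0.4999) and Unigene50497_All (0.4975) were inside it, and CL3293.Contig7_All and CL13744.Contig2_All, both at 0.5025, outside. At the lower LmHC limit there were only 2 contigs within 0.1 on each side. Unigene47520_All (-0.4776) and Unigene3795_All (-0.405) were inside it, and CL104.Contig6_All (-0.5039) and Unigene50320_All (-0.5549) outside. For the lines at 0 h, Unigene10410_All (0.4985) and Unigene7412_All (0.4823) were inside the upper limit, and Unigene4911_All (0.512) and CL3978.Contig3_All (0.5128) outside. CL1712.Contig3_All (-0.4969) and Unigene49328_All (-0.4957) were inside the lower one, and CL3700.Contig5_All (-0.504) and CL5120.Contig5_All (-0.516) outside.

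Cluster membership was not used to choose the members. In clusters were 157 of the 308 (51.0%), against 66.0% of all contigs with a mean of at least 2 FPKM and 65.1% of those higher in both lines. The 157 lay in 138 clusters, of which 122 held 1 member, 13 held 2 and 3 held 3. Partners numbered 1029, with a median of 6 per cluster. RSEM shares out a fragment among all contigs it matches, so the values of a member and its partners depend on each other.

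In most of these clusters the partners were higher at 24 h in LmHC as well. Among the 157 clustered members, 111 (70.7%) had at least 1 partner that was at least 2-fold higher in LmHC, and 138 (87.9%) had one that was at least 2-fold higher in LmLC. For all clustered contigs with a mean of at least 2 FPKM these shares were 46.1% and 45.8%, and for contigs higher in both lines 93.3% and 93.4%. Fellow members count in these shares: 35 of the 157 had one, and the rule itself places it above 2-fold in LmLC. Large clusters have more chances to hold a partner that was at least 2-fold higher. With 2 to 5 contigs in the cluster, the share with a partner higher in LmHC was 42.6% for members, 85.0% for contigs higher in both lines and 25.2% for all. With more contigs it was 92.1%, 98.6% and 73.4%.

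Summed over the partners of a cluster, 79 of 138 clusters (57.2%) were at least 2-fold higher in both lines, with median log2 ratios of 3.20 in LmLC and 3.04 in LmHC. In these 79 clusters the members were a small part, with a median of 9.25% of the cluster's FPKM in LmLC at 24 h and 0.0706% in LmHC at 24 h. Counted by contig, all other contigs of its cluster were summed as partners, fellow members included. On that count, 57.3% of the 157 clustered members had a partner sum higher in both lines. The share was 22.4% of all 32917 clustered contigs with a mean of at least 2 FPKM and 78.2% of those higher in both lines. A partner sum higher in LmLC alone was found for 20.4% of members, 3.45% of all and 3.60% of those higher in both lines. With fellow members left out of the sums, it was found for 25 of the 157 members. For 13.4% of members the partner sum stayed within 2-fold in both lines, against 35.5% of all and 11.6% of those higher in both lines. By cluster again, in 23 clusters the partners were at least 2-fold higher in LmLC alone, and in 19 they stayed within 2-fold in both lines. In these cluster counts, alone means only that the other line stayed within 2-fold. The 23 clusters had a median log2 partner ratio of 1.59 in LmLC and 0.50 in LmHC. At 24 h their partners were at least 2-fold higher in LmLC than in LmHC in 9 of the 23. In 7 clusters the partners' mean was under 1 FPKM, and CL12723 and CL10213 had no partner besides members. In CL560, CL6562, CL7029 and CL7233 the partner sum passed 2-fold in LmHC alone. Each of the remaining 4 clusters stood by itself: the partners of CL7792 were lower in both lines, those of CL14307 in LmHC alone and those of CL4839 in LmLC alone. In CL9057 the partners went from 0.29 to 3.21 FPKM in LmHC and from 2.45 to 0.64 FPKM in LmLC.

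**Figure D2:**
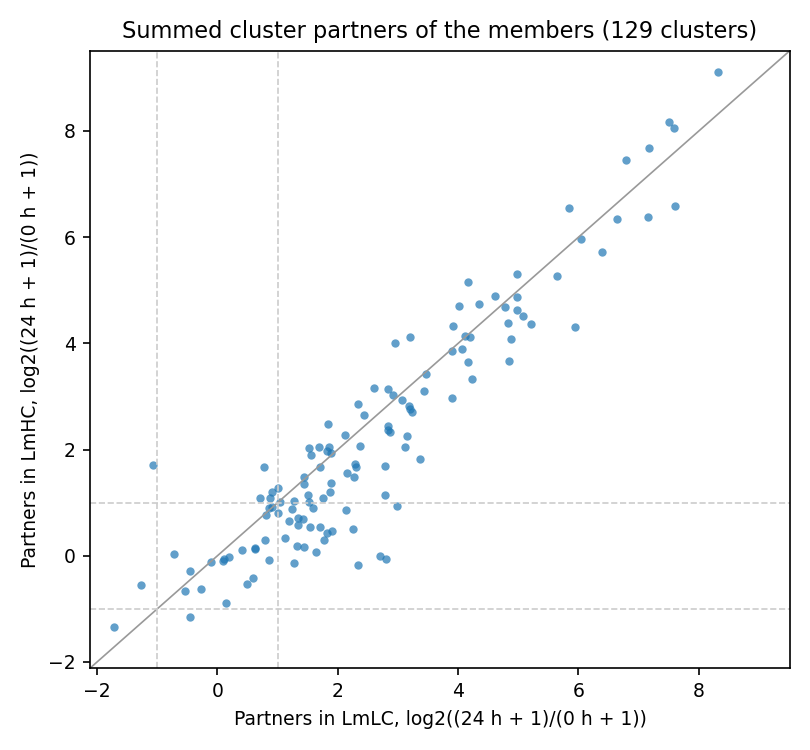
Log2 ratio of 24 h over 0 h, with 1 FPKM added, for the summed partners of each of 129 clusters with a partner mean of at least 1 FPKM, in LmLC (horizontal) and LmHC (vertical). Grey dashed lines mark 2-fold and the diagonal marks equal ratios; the median is 2.16 in LmLC and 1.69 in LmHC, and many clusters lie above 2-fold in both lines.

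For the silent members, the share with partners higher in both lines was near that of low contigs in general. Of 97 clustered silent members, 73 (75.3%) had a partner sum higher in both lines, against 71.5% of all 3492 clustered contigs under 1 FPKM in both 0 h libraries with a mean of at least 2 FPKM. A partner sum higher in LmLC alone was found for 12 (12.4%), against 4.27%. Fellow members count as partners here, and the rule chose them for a rise in LmLC alone. Without them, 7 of the 97 (7.22%) had such a partner sum, and 5 had no partner left. Of 60 clustered active members, 17 (28.3%) had a partner sum higher in both lines and 20 (33.3%) one higher in LmLC alone. For the 29425 such contigs with at least 1 FPKM in a 0 h library, these shares were 16.6% and 3.36%. Without fellow members, 18 of the 60 (30.0%) had a partner sum higher in LmLC alone. For 15 of the 60 (25.0%) the partner sum stayed within 2-fold in both lines, against 37.8%. These shares are descriptions, since members and partners were measured in the same 4 libraries.

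Several clusters held a member near 0 outside LmLC at 24 h beside partners that were high in both lines at that time. In CL1527, Contig8 was listed at 0 in both LmHC libraries and went from 0.12 to 39.01 FPKM in LmLC. Its partner CL1527.Contig12_All went from 0.75 to 299.64 FPKM in LmHC (log2 change 7.42) and from 0.99 to 279.63 FPKM in LmLC, and CL1527.Contig2_All, the partner with the highest mean, from 1.76 to 407.89 and from 2.70 to 473.55 FPKM. The member was thus at 0 in an LmHC library in which its partners reached up to 407.89 FPKM. CL13070.Contig3_All was listed at 0 in 3 libraries and had 8.58 FPKM in LmLC at 24 h, while CL13070.Contig1_All went from 0.20 to 193.53 FPKM in LmHC and from 0.34 to 162.53 FPKM in LmLC. CL9308.Contig4_All had 9.72 FPKM in LmLC at 24 h and was listed at 0 elsewhere. Its partner CL9308.Contig9_All went from 0.00 to 161.23 FPKM in LmHC and from 0.15 to 243.90 FPKM in LmLC, while CL9308.Contig5_All, a partner under the mean of 2 FPKM, had 0.28 FPKM in LmHC and 5.15 FPKM in LmLC at 24 h. CL495.Contig2_All reached 26.33 FPKM in LmLC and 0.25 FPKM in LmHC at 24 h, from 0 in both lines, and CL495.Contig9_All 111.71 FPKM in LmLC and 153.57 FPKM in LmHC. In that cluster CL495.Contig4_All, which missed the LmHC limit with a log2 change of 0.74, also had 37.26 FPKM in LmLC and 0.67 FPKM in LmHC at 24 h.

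The same arrangement was seen in clusters with more than 1 member. CL501 has 17 contigs, and its members Contig13, Contig14 and Contig17 together went from 0.16 to 37.19 FPKM in LmLC and from 0.17 to 0.62 FPKM in LmHC. Its 14 partners together went from 5.66 to 189.01 FPKM in LmLC and from 5.71 to 139.15 FPKM in LmHC, led by CL501.Contig1_All with 74.69 FPKM in LmLC and 66.46 FPKM in LmHC at 24 h. The members made up 16.4% of the cluster in LmLC at 24 h and 0.444% in LmHC. CL1391 has 18 contigs, and its 2 members went from 0.14 to 108.22 FPKM in LmLC and from 0.00 to 0.57 FPKM in LmHC. The 16 partners went from 4.28 to 325.16 FPKM in LmLC and from 10.61 to 229.11 FPKM in LmHC, with CL1391.Contig5_All the highest by mean (55.10 FPKM in LmLC and 68.63 FPKM in LmHC at 24 h). The partner highest in LmLC at 24 h was CL1391.Contig10_All, with 64.55 FPKM there against 5.67 FPKM in LmHC.

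CL14628 differed in that its members were active before treatment. Most of its partners were active too, except Contig4 and Contig12, which were under 1 FPKM in both 0 h libraries. Its 3 members of 12 contigs went from 31.92 to 131.30 FPKM in LmLC and from 41.33 to 49.95 FPKM in LmHC. The partners went from 50.52 to 531.64 FPKM in LmLC, a log2 ratio of 3.37, and from 65.03 to 232.51 FPKM in LmHC, a log2 ratio of 1.82. Both lines were therefore higher at 24 h for the cluster as a whole, by 2.99 in LmLC and 1.40 in LmHC on the log2 scale. The leading partner, CL14628.Contig6_All, had 284.85 FPKM in LmLC and 123.50 FPKM in LmHC at 24 h.

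In a few clusters a partner was much lower at 24 h while the member was higher. CL302.Contig17_All was listed at 0 in 3 libraries and had 37.09 FPKM in LmLC at 24 h. CL302.Contig6_All went down in both lines, from 14.69 to 2.24 FPKM in LmLC and from 14.02 to 1.50 FPKM in LmHC, and the highest partner, CL302.Contig15_All, went from 9.04 to 210.63 and from 7.40 to 167.97 FPKM. CL15094.Contig18_All went from 0.61 to 11.44 FPKM in LmLC and from 0.21 to 0.00 FPKM in LmHC. Its partner CL15094.Contig19_All had 6.15 FPKM in LmLC at 0 h and was listed at 0 in the other libraries, and CL15094.Contig4_All, the highest by mean, went from 413.66 to 265.97 FPKM in LmLC. In CL3222, whose 18 partners reached 2653.58 FPKM in LmLC and 1932.78 FPKM in LmHC at 24 h, Contig3 went from 24.46 to 4.42 FPKM in LmLC and from 13.59 to 5.08 FPKM in LmHC. Its members Contig2 and Contig5 went from 7.01 to 27.06 and from 0.36 to 24.55 FPKM in LmLC, and the highest partner, CL3222.Contig13_All, from 226.52 to 857.63 FPKM. A partner at least 2-fold lower in LmLC was found for 15 of 157 clustered members (9.55%), against 37.5% for all clustered contigs with a mean of at least 2 FPKM and 9.29% for contigs higher in both lines.

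Partners whose LmHC level at 24 h was at least 2-fold above both their LmHC level at 0 h and their LmLC level at 24 h were found for 25 of 157 members (15.9%). The share was 11.2% for all clustered contigs with a mean of at least 2 FPKM and 27.9% for contigs higher in both lines.

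The LmLC pattern held for the summed cluster in 16 of 138 cases (11.6%), against 0.243% of all 13172 clusters with a mean sum of at least 2 FPKM, a background that includes these clusters. For these the total of all contigs was higher by at least 1.5 in LmLC, within 0.5 in LmHC and within 0.5 between the lines at 0 h. Summed over contigs, 122 clusters were at least 2-fold higher in LmLC, 82 in LmHC and 79 in both, and 40 were at least 2-fold higher in LmLC than in LmHC at 24 h. Over all 13172 clusters these shares were 22.8%, 22.5%, 19.8% and 2.97%. The members, chosen for this pattern, are part of these sums, so nothing is read from the share of 11.6% or from the LmLC counts. In clusters that kept the pattern, the members' share of the sum in LmLC at 24 h ran from 12.2% in CL3978 to 100% in CL12723. The median log2 ratio of the cluster sum was 2.34 in LmLC and 1.38 in LmHC.

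The clusters that kept the pattern were small or silent in several cases. CL12723 went from 0.57 to 243.47 FPKM in LmLC and from 0.87 to 0.39 FPKM in LmHC. CL1372, with 4 contigs, went from 0.04 to 95.77 FPKM in LmLC and from 0.14 to 0.49 FPKM in LmHC, and its partners Contig2 and Contig3 were listed at 0 outside LmLC at 24 h, where they had 2.34 and 3.16 FPKM. CL10213, made of 2 members, was listed at 0 in LmLC at 0 h and had 20.12 FPKM at 24 h, with 0.33 and 0.68 FPKM in LmHC. In each of these 3 clusters the sum in LmHC was at most 0.87 FPKM at either time. CL9850, with 5 contigs, was active in all libraries and went from 38.77 to 148.72 FPKM in LmLC and from 55.13 to 63.27 FPKM in LmHC. Its highest partner, CL9850.Contig4_All, went from 9.89 to 27.76 FPKM in LmLC and from 15.60 to 10.38 FPKM in LmHC. CL3978, with 7 contigs and 1 member, had partners that went from 76.25 to 262.92 FPKM in LmLC and from 90.61 to 111.55 FPKM in LmHC. Its partner Contig3 was among the contigs just outside the 0 h limit.

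**Figure D3:**
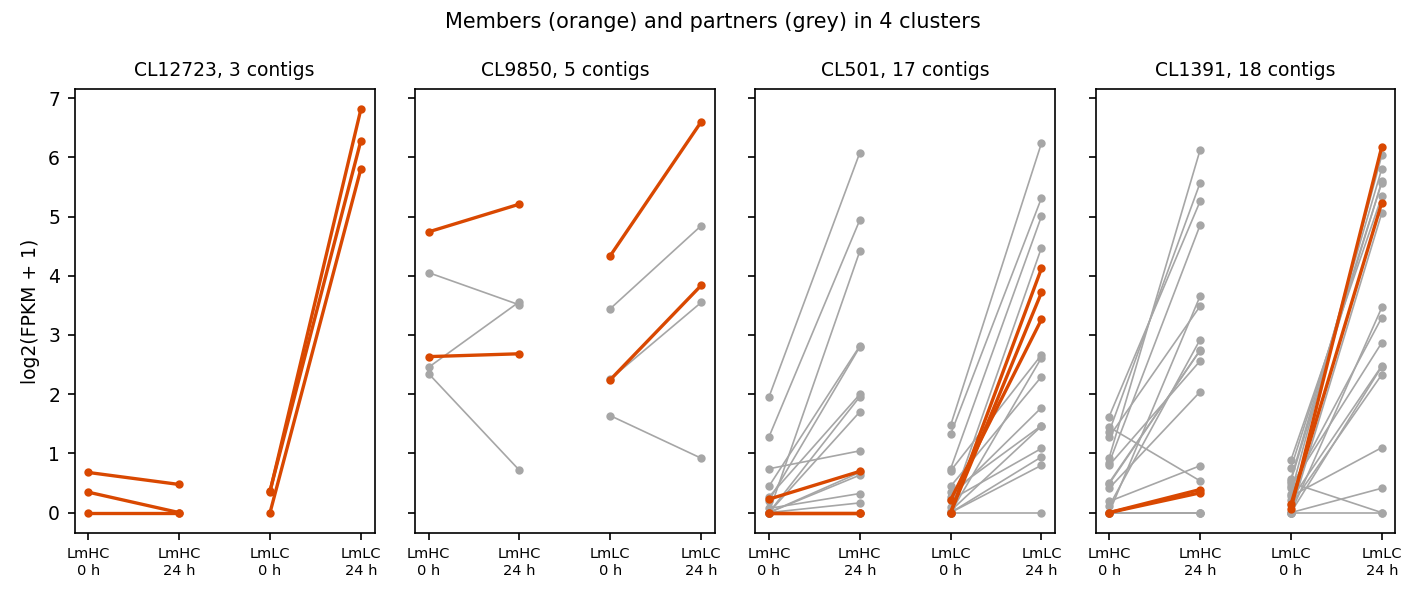
Level of each contig, as log2(FPKM + 1), in clusters CL12723, CL9850, CL501 and CL1391, with members in orange and partners in grey and a line joining 0 h and 24 h within a line. In CL12723 all 3 contigs are near 0 outside LmLC at 24 h. In CL501 and CL1391 the orange members climb in LmLC alone, and the highest grey partners climb in both lines. Some high partners, such as CL1391.Contig10_All, climb much further in LmLC. A few lower partners such as CL501.Contig16_All (21.27 FPKM in LmLC and 0.55 FPKM in LmHC at 24 h) look like the members.

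Members outside clusters were concentrated at the end of the contig numbering, which the rule did not use. Of 151 stand-alone members, 124 (82.1%) had a Unigene number of 45000 or above. The share was 6.32% of 16928 stand-alone contigs with a mean of at least 2 FPKM, 12.0% of the 2655 higher in both lines, and 1 of the 28 higher in LmHC alone. In that range 124 of 1070 contigs with that mean met the rule (11.6%), against 27 of 15858 below it (0.170%). The limit of 45000 was set after these values were seen.

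The numbering also followed the library in which a contig was highest. In blocks of 2500 numbers, contigs highest in LmLC at 24 h made up 83.1% of the block from 47500 and 88.4% of the block from 50000, and between 2.29% and 41.5% of each block before. Other blocks were filled by contigs highest in another library: 86.0% in LmHC at 0 h from 22500, 83.0% in LmHC at 24 h from 32500 and 68.3% in LmLC at 0 h from 37500. Of the 28 stand-alone contigs higher in LmHC alone, 10 lay in the block from 32500. Every member is highest in LmLC at 24 h through the rule, so its number and its pattern move together, and the part of the numbering or of the assembly in the members' values was not tested.

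**Figure D4:**
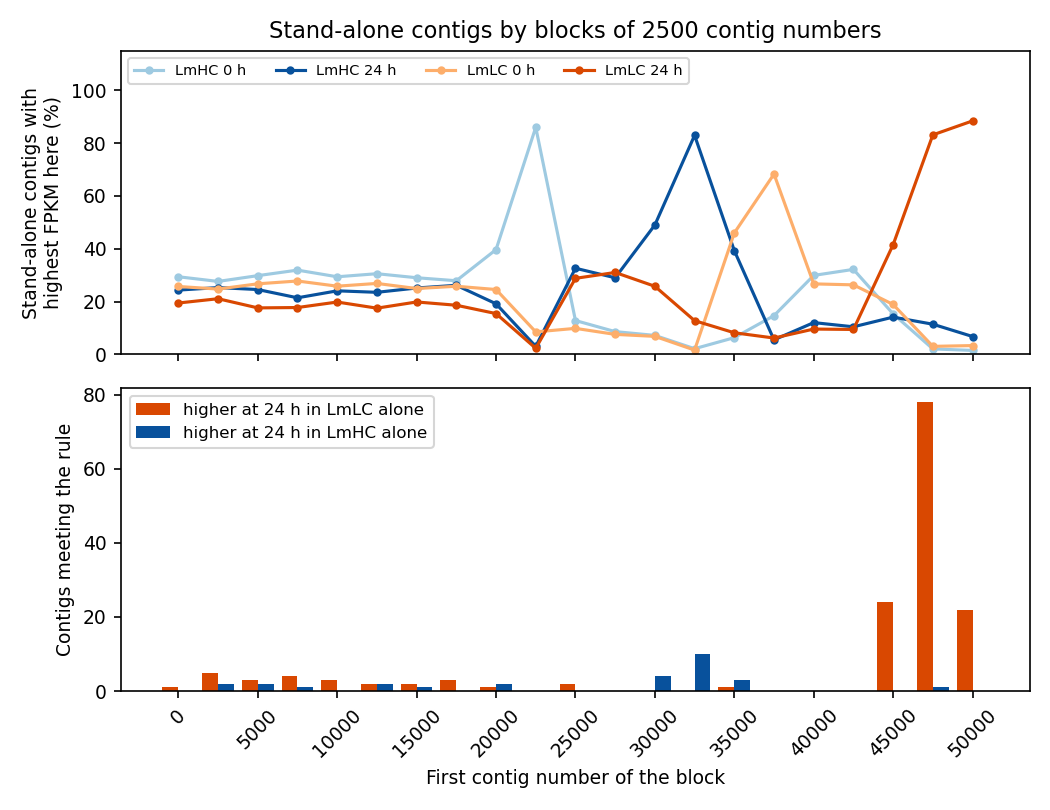
Top, share of stand-alone contigs whose highest FPKM is in each library, in percent, by block of 2500 contig numbers. Bottom, number of stand-alone contigs per block that were higher at 24 h in LmLC alone or in LmHC alone; 78 LmLC members lie in the block from 47500, where 83.1% of contigs are highest in LmLC at 24 h.

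The levels of the 124 high-numbered members and the 27 others are values that the rule used and are given as a description. Of the 124, 117 (94.4%) were under 1 FPKM in the other 3 libraries, and their median log2 rise in LmLC was 3.57. Of the 27, 6 (22.2%) were under 1 FPKM in the other 3 libraries, with a median log2 rise of 1.81, a median LmHC change of 0.22 and a median of 1.90 FPKM at 0 h. In LmLC at 24 h the medians were alike, 11.735 FPKM for the 124 and 10.81 FPKM for the 27.

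Neighbouring numbers occurred among the stand-alone members in 12 runs, which held 25 of the 151. No share for all stand-alone contigs stands beside this count, and 124 of the 151 were crowded at 45000 or above. Nothing is therefore read from it. In the run of 3, Unigene48302_All, Unigene48303_All and Unigene48304_All had 33.95, 36.41 and 16.00 FPKM in LmLC at 24 h and at most 0.31 FPKM in any other library. Unigene46339_All, next to Unigene46340_All, had 15.59 FPKM in LmLC at 24 h, 0.05 FPKM in LmLC at 0 h and was listed at 0 in LmHC. These runs were singled out after their values were seen.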

How the data were processed

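The deposited table held FPKM values, made by the authors and rounded by them to 2 decimals, for 4 libraries of polyadenylated RNA. The tools listed per the submitters' processing notes are RSEM 1.2.8 and Bowtie2 2.2.5. Assembler, contig lengths and filters are not given in the labels, and no counts were used. From these values, ratios were computed as log2((FPKM + 1)/(FPKM + 1)), which understates the change of low contigs. Members, partners and cluster sums were counted as described. Partners were called 2-fold apart at a log2 of 1 in size. With 1 library per group no test was run. Named contigs were the members with the 8 largest rises, the 8 highest levels, the 6 clusters with most members, the 4 members with the largest partner rise in LmHC and the 4 with the largest partner fall in LmLC, and those next to each limit. The partner with the highest mean in each cluster described was named too. Other contigs were chosen after their values were seen, among them CL9308.Contig5_All, CL495.Contig4_All, CL1391.Contig10_All and CL501.Contig16_All. So were all clusters named by class. Members and limits were chosen with earlier results of these data known. Lists of metal transport, chelation, sulfur, heat shock and photosynthesis genes could not be applied. Relative depth came from values of 0.3 to 1.2 FPKM in Unigene contigs, and the search spanned only ratios well under 2-fold. The code that applies the rule was tested on simulated data. Changes were placed only in contigs well above 0 at 0 h, so low contigs such as the silent members were not covered. Software was matplotlib 3.10.9, scipy 1.17.1, pandas 2.3.3 and numpy 2.4.6 under Python 3.11.15. The alternatives tried were other pseudocounts, filters, scalings and limits.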

Additional observations from a re-analysis of the deposited data

Results flagged for a closer look

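Of the 308 members, 45 were higher at 24 h in LmLC and lower at 24 h in LmHC, so the single pair of libraries of each line moved in opposite directions. The difference was not tested. The LmHC change is a value that the rule used, so nothing is read from its direction: 14.6% of members and 57.0% of the 49845 contigs with a mean of at least 2 FPKM were lower at 24 h in LmHC, and a contig listed at 0 at 0 h cannot be lower. With median-of-ratios scaling, 31 of the same 308 contigs were lower in LmHC. The LmHC falls were small by the rule, with the largest at a log2 of -0.48, and 15 of the 45 had at least 1 FPKM in LmHC at 0 h, the others less. Unigene4575_All, chosen after its values were seen, went from 8.53 to 6.40 FPKM in LmHC and from 8.03 to 28.89 FPKM in LmLC. Unigene47520_All went from 1.2 to 0.58 FPKM in LmHC and from 1.2 to 6.02 FPKM in LmLC.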

How the results depend on the processing

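Counts are given in the order members, contigs higher in LmHC alone, clustered members with a partner at least 2-fold higher in LmHC, and clusters whose sum kept the pattern (308, 63, 111 and 16 as reported). Of 36 such values under alternatives, 13 stayed within a factor of 1.5 and 23 did not, and beyond what each setting does by construction the cause was not tested. A pseudocount of 0.1 gave 147, 69, 56 and 7, and one of 5 gave 295, 20, 99 and 17. No filter on low values gave 1863, 701, 577 and 54, and a mean of at least 5 FPKM gave 92, 11, 29 and 9. A log2 rise of at least 2 gave 237, 23, 82 and 5, and of at least 1 gave 522, 298, 174 and 46. Bands of 0.25 in place of 0.5 gave 132, 16, 43 and 1. Median-of-ratios scaling gave 329, 105, 112 and 14. It moved the median log2 ratio of contigs with a mean of at least 2 FPKM from -0.27 to -0.01 in LmLC and from -0.35 to -0.0034 in LmHC. Scaling to the same total gave 302, 68, 110 and 15. Members outnumbered the contigs higher in LmHC alone in each setting, by 1.75 to 14.75 times. The members were not the same contigs: of the 308, 118 met the rule with a pseudocount of 0.1, 158 with one of 5 and 241 with median-of-ratios scaling. The share of clustered members with a partner higher in LmHC lay between 59.2% and 79.6%. None of 30 alternative values for the log2 rise of 10 named members changed sign, and 14 lay within 1.5-fold. Nothing is read from the signs, since a pseudocount cannot change a sign and these members were named for large rises or high levels. No paired analysis was possible because each group had 1 library. Without fragment counts, the precision of values under 1 FPKM is unknown.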
